A study of Homo sapiens with 8 samples.

Results

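NF-kappaB is a family of dimeric transcription factors assembled from 5 subunits, and the genes described here are those subunits with a small set of inhibitors and feedback genes that the family itself switches on. The 10 members were taken by symbol from the deposited table of 63816 gene entries: the subunit genes NFKB1, NFKB2, REL, RELA and RELB, the inhibitor genes NFKBIA and NFKBIE, and TNFAIP3, TNFAIP2 and BIRC3. Each symbol stood on 1 entry, and all 10 entries passed the filter of at least 1 TPM (transcripts per 1000000) in at least 4 libraries. The samples were Caco-2 cells, an established human line derived from a colorectal adenocarcinoma, without Siglec-XII protein of its own in the study's flow cytometry. In 4 samples the cells had been stably transfected with the empty vector pcDNA3.1, and in 4 with the same vector carrying full-length human SIGLEC12, the gene for Siglec-XII, and both groups had passed through drug selection. The empty vector cells are called controls below. Since the groups were transfected and selected separately, what the protein does and how the selected cell populations differ otherwise cannot be told apart.

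In resting cells NF-kappaB dimers are held in the cytoplasm by IkappaB proteins. Receptors of the tumor necrosis factor and interleukin families and Toll-like receptors activate the IkappaB kinases, IkappaB is degraded and the dimers enter the nucleus. Among the genes they then induce are their own inhibitors and several of their own subunits, and in intestinal epithelium the pathway is known for its part in inflammation, in cell survival and in tumors that arise on an inflamed mucosa.

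In the promoters of the members the kappaB consensus, the short sequence that NF-kappaB dimers bind, was searched on both strands from 250 bases before to 50 bases after each gene start (RefSeq, GRCh38.p14). Of the 10 members, 8 had a promoter in that table, all but RELB and NFKBIE, and 6 of the 8 held at least 1 match. Of the 23 other NF-kappaB target genes with such a promoter, 52.2% held one, of the 76 other pathway genes 30.3%, and of all genes 7.09%. By promoter the share was 58.3% of the 12 of the members and 5.91% of all. The members and targets were listed as genes of this pathway, many of them known to be induced by NF-kappaB. Their shares therefore depend on that choice and are no test of it. The sequences below are shown because they hold the letters of the kind that the products of these same genes bind. Each runs 5′ to 3′ along the gene and capitals mark the match, which reads in reverse complement in NFKBIA, TNFAIP3 and BIRC3. Overlapping matches on both strands were joined in the first NFKB2 sequence and in REL, and TNFAIP3 holds 2 matches.
NFKB1 promoter, chr4:102501300-102501329, plus strand: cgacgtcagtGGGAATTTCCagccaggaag
NFKB2 middle promoter, chr10:102394462-102394491, plus strand: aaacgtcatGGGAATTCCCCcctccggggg
NFKB2 last promoter, chr10:102395674-102395703, plus strand: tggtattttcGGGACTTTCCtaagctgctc
REL promoter, chr2:60881518-60881547, plus strand: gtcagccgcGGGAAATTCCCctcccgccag
NFKBIA promoter, chr14:35404811-35404840, minus strand: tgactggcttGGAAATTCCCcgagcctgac
TNFAIP3 promoter, chr6:137867188-137867217, plus strand: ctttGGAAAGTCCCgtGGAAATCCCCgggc
BIRC3 promoter, chr11:102317275-102317304, plus strand: tttgggtcatGGAAATCCCCgagtgggttt

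The matches lay close to the gene start, 49 bases before it in NFKB1, 47 in REL, 67 in TNFAIP3 and 81 in NFKBIA. In BIRC3 the first match lay 199 bases before the start. The 3 NFKB2 promoters held 6 matches between them, some of them overlapping. They began 107 and 78 bases before the start in the middle promoter and 176 and 21 in the last. Both RELA promoters and that of TNFAIP2 held no match, which says only that these letters are not in these windows. A match is a description of the sequence and was not measured as binding in these cells.

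The libraries were checked before the members were compared. SIGLEC12, the transfected gene, stood at 0.11 ± 0.05 in log2(TPM + 1) in the controls and at 10.70 ± 0.06 after its transfection (SD, n = 4). The two-sided p of 0.0286 from an exact permutation test is the lowest possible with 4 libraries a group. Of 12 genes typical of colon epithelium, 6 passed the filter, among them the intestinal factors CDX1 and CDX2 and the keratin gene KRT8, but CDH17, KRT20 and LGALS4 stayed under 1 TPM in all 8 libraries. Of 12 genes typical of trophoblast, 11 passed, and GCM1 stayed under 1 TPM in all 8 libraries. In the empty vector group GATA3 stood at 402 TPM, HSD3B1 at 344, PAGE4 at 305, KRT7 at 231, TFAP2C at 158 and TFAP2A at 33.0. The others that passed were low there, with CYP19A1 at 4.25 TPM, ERVW-1 at 1.40, PSG1 at 1.35, PSG3 at 1.22 and CGA at 0.98. The markers thus go only partly with the labelled line, and the trophoblast list itself is mixed. The colon list, dominated by its keratins, summed to 7450 to 8445 TPM in the controls and to 8963 to 9275 TPM with Siglec-XII, the trophoblast list to 1423 to 1546 TPM and 1429 to 1451 TPM, the fibroblast list to 70.7 to 87.1 TPM and 83.2 to 89.1 TPM, and the immune list to at most 6.48 TPM, with PTPRC, the leukocyte common antigen, under 1 TPM everywhere. The part of these shifts in the results was not tested, and no marker of the 4 lists passed the test itself. In bulk RNA a higher level per cell and a larger share of expressing cells cannot be told apart.

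One library stood apart for these genes. Empty vector replicate 2 was the highest of the 4 empty vector libraries for all 10 members, whereas it was the highest for 34.9% of the 15590 entries tested. Against the mean of the other 3 empty vector libraries its members stood higher by a median of 0.29 on the log2 scale, and all tested entries by a median of 0.05. In 7 of the 10 members this empty vector library also lay above every Siglec-XII library, which held for 16.4% of all tested entries. Its general measures lay within or close to those of its group. Mitochondrially encoded genes took 8.49% of its TPM, within the 7.92% to 11.2% of the other empty vector libraries, 15801 entries reached 1 TPM, and its mean correlation with its group, across genes, was 0.980 against 0.981 to 0.982 for the others. Its colon list (8445 TPM) and fibroblast list (87.1 TPM) were the highest of the controls, and their part in its levels was not tested. Each member's comparison below is given with and without it, a choice made after the values had been seen.

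**Figure D1:**
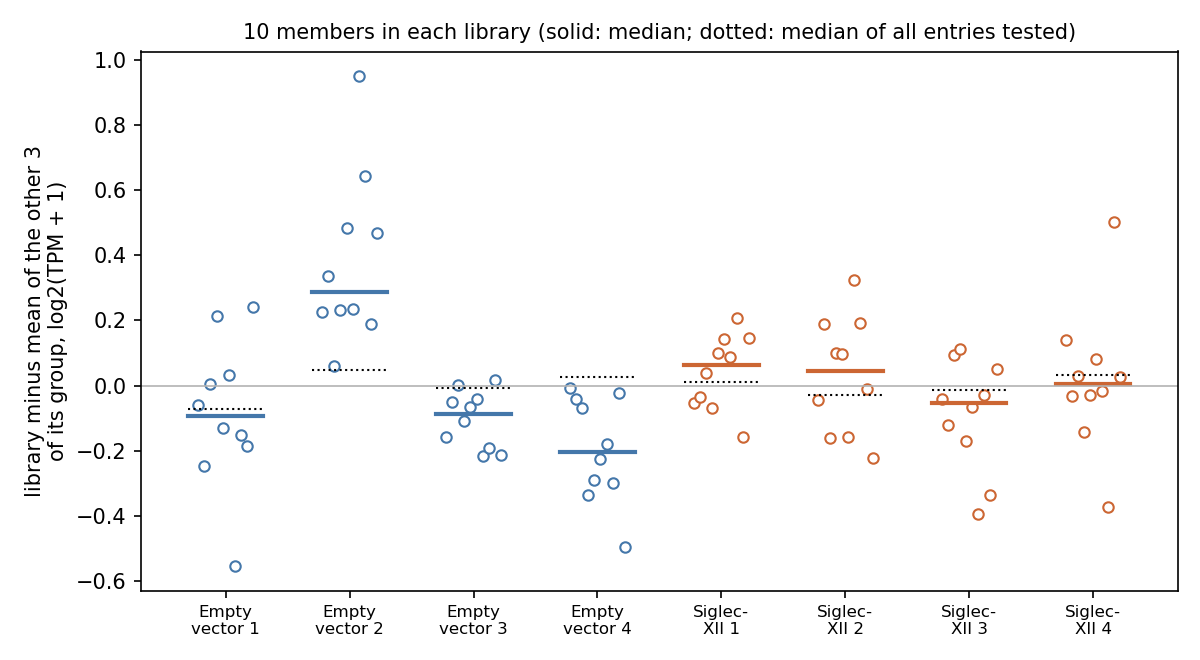
Each point is 1 of the 10 members in 1 library, as the log2(TPM + 1) of that library minus the mean of the other 3 libraries of its group. Solid bars are the median of the members and dotted bars the median of all entries tested. All 10 points of empty vector replicate 2 lie above 0, with a median of 0.29, the 10 points of empty vector replicate 4 lie below 0, with a median of -0.20, and the other 6 libraries have points on both sides.

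The deviation was uneven among the members. NFKBIE stood at 4.28 in empty vector replicate 2 against 3.15 to 3.43 in the other 3 empty vector libraries, a difference of 0.95 that was larger than that of 99.0% of all tested entries. TNFAIP3 was higher there by 0.64, RELB by 0.48, BIRC3 by 0.47 and NFKB2 by 0.34. NFKBIA, RELA and NFKB1 were higher by 0.23 or 0.24 and TNFAIP2 by 0.19. REL, at 2.37 against 2.27 to 2.33, was higher by 0.06, near the middle of all entries. At the other end, replicate 4 was the lowest control for 6 members, RELA and BIRC3 among them.

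Of the 61 other pathway genes tested, 36 (59.0%) had their highest empty vector value in replicate 2, against 34.9% of all tested entries. In 48 of the 61 it lay above the mean of the other 3, as it did for 61.4% of all entries, with a median difference of 0.152, and in 13 it lay below. Those that deviated most upward, named after their values were seen, were MAP3K14, the kinase that starts processing of the NFKB2 precursor (higher by 0.70), IKBKB, a catalytic IkappaB kinase (0.68), the cytokine gene IL32 (0.65), TNF (0.57) and BCL3, which binds NF-kappaB dimers in the nucleus (0.56). MAP3K14 stood on 2 entries, and the one with the higher mean was read. The lowest, also named after their values were seen, were NFKBIZ, which encodes a nuclear IkappaB protein (-0.35), the kinase gene IRAK4 (-0.25) and XIAP, an inhibitor-of-apoptosis gene (-0.24). These are differences of 1 library from 3 and have no replicate.

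The levels of the members spanned a wide range. Over all 8 libraries the order of mean log2(TPM + 1) was NFKB2 (5.499), RELA (5.16), NFKBIA (5.11), NFKB1 (4.997), TNFAIP3 (3.97), RELB (3.48), NFKBIE (3.46), BIRC3 (2.87), REL (2.47) and TNFAIP2 (1.05). TPM is a level per transcript length, so genes can be compared on it. Only 2 neighbouring pairs in this order had ranges that did not overlap, NFKB1 above TNFAIP3 and REL above TNFAIP2. RELA and NFKBIA differed by 0.05 ± 0.15 (SD over 8 libraries), and RELB and NFKBIE by 0.02 ± 0.28, so neither pair was ordered beyond the spread. NFKB2 was more abundant than 76.7% of all tested entries by mean TPM, TNFAIP3 than 52.0%, and TNFAIP2 than 2.32%.

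**Figure D2:**
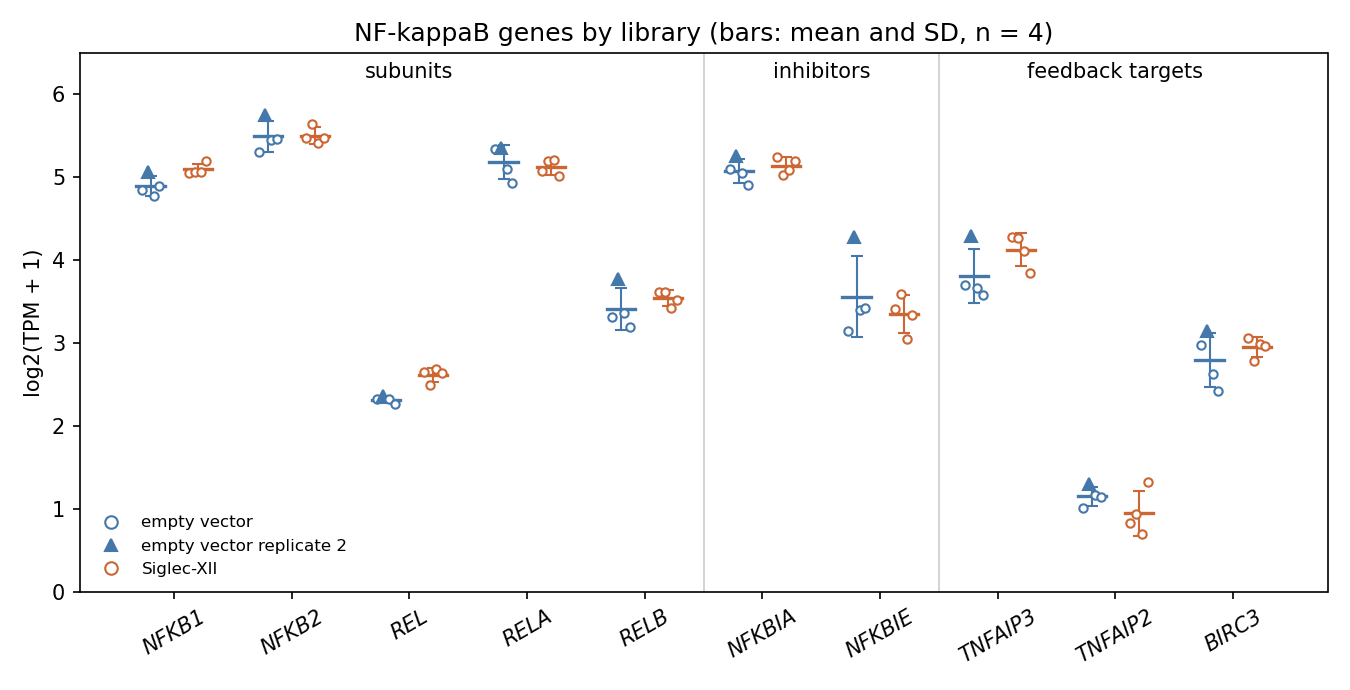
Levels of the 10 members as log2(TPM + 1), with 1 point per library, the empty vector group in blue, the Siglec-XII group in orange and bars for the mean and SD (n = 4). Empty vector replicate 2, the filled triangle, is the highest empty vector value for every gene, and REL is the only gene whose groups do not overlap, at 2.27 to 2.37 and 2.50 to 2.69.

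The comparison asked whether transcript levels of these genes differ when Siglec-XII is present, and limma was fitted to all 15590 entries, with p-values adjusted over all of them. None of the 10 members had an adjusted p under 0.05, where 101 entries (0.648%) did, 53 (0.34%) higher and 48 (0.308%) lower. The balance of directions in this background moved with the setting. With quantile normalization the calls were 28 higher and 58 lower, with equal upper quartiles 24 and 58, with the mitochondrial and most abundant genes left out 24 and 48, and with the length trend removed 20 and 56. More were lower also with the replicate number as a block (18 and 51) and with no mean-variance trend (23 and 31). The same held with no filter (21 and 30) and with any library other than empty vector replicate 2 left out. In the other direction they were 111 and 48 without empty vector replicate 2 and 22 and 11 without small structured RNAs. More were higher also with a pseudocount of 0.1 (41 and 35), a mean of at least 5 TPM (58 and 52) and array weights (59 and 50). With p taken before adjustment, 2 of the 10 members, NFKB1 and REL, were at 0.05 or less, both higher, where 16.5% of all entries were, 13.9% higher and 2.61% lower. REL was the 1 member whose groups did not overlap, which held for 10.8% of all entries, 9.17% higher and 1.68% lower. The fitted difference was above 0 for 7 members and below 0 for 3, where 68.1% of all entries were above 0, and the median over the members was 0.10 against 0.07 over all entries. These shares are near the background. With quantile normalization 5 of the 10 were above 0 and the median of all entries was 0.0095. The members' median was 0.19 when empty vector replicate 2 was left out and 0.021 when replicate 4 was. The number of members at that p before adjustment was then 4 and 2, and it was 1 when empty vector replicate 3 was left out.

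**Figure D3:**
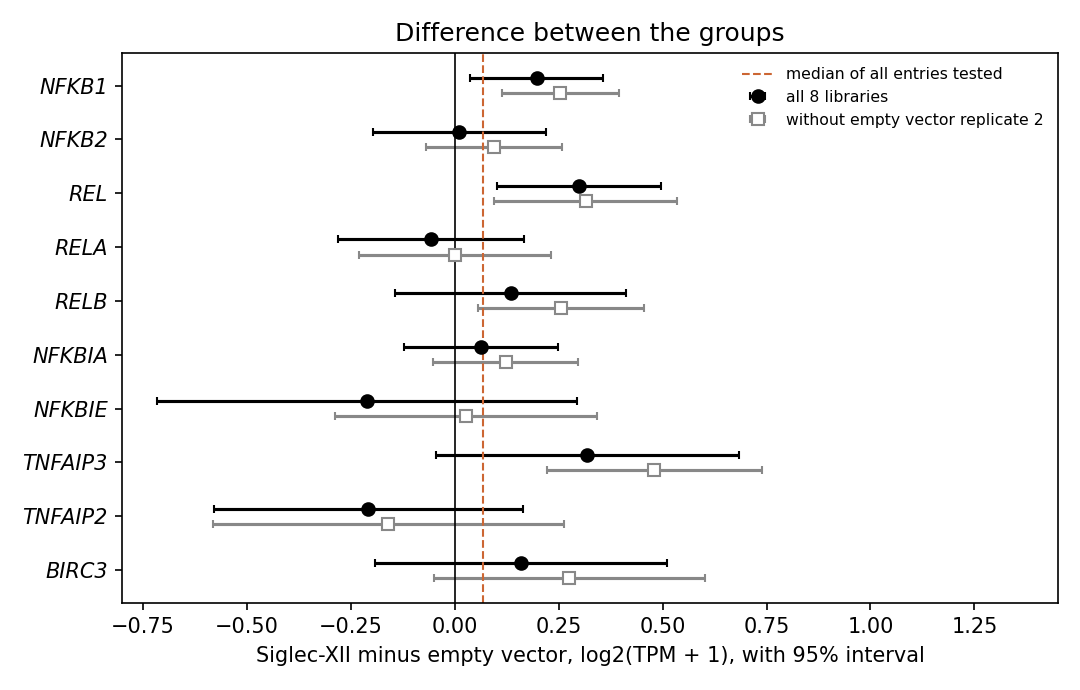
Difference of the group means (Siglec-XII minus empty vector) on the log2(TPM + 1) scale with its 95% limma interval, from all 8 libraries (black circles) and without empty vector replicate 2 (gray squares). The dashed line is the median of all entries tested, 0.07. With all libraries the intervals of NFKB1 and REL lie above 0 and the others cross it, and without that library those of RELB and TNFAIP3 also lie above 0. Since that library was the highest control of every member, leaving it out had to move each difference upward.

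Among the subunits, REL encodes c-Rel, a subunit with a transactivation domain that is best known from lymphocytes (ENSG00000162924, chromosome 2, 61108626 to 61158747 in GRCh37). Its log2(TPM + 1) was 2.33, 2.37, 2.32 and 2.27 in empty vector replicates 1 to 4, and 2.65, 2.50, 2.69 and 2.64 with Siglec-XII. Every Siglec-XII library was above every empty vector library. Its TPM averaged 4.001 ± 0.139 and 5.16 ± 0.347 (SD, n = 4). The difference was 0.30 (SE 0.09, 95% interval 0.10 to 0.50, limma, adjusted p = 0.154), or 1.23-fold on the TPM + 1 scale. It did not pass the test over all entries. It was 0.31 without empty vector replicate 2 (adjusted p = 0.139), and its adjusted p ran from 0.115 to 0.384 over 18 alternatives.

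NFKB1 encodes the precursor of a subunit with a DNA-binding domain and no transactivation domain, the usual partner of RELA (ENSG00000109320, chromosome 4, 103422487 to 103538459). Its levels were 4.85, 5.07, 4.78 and 4.89 in the controls and 5.06, 5.06, 5.06 and 5.20 with Siglec-XII. Empty vector replicate 2 lay among the Siglec-XII libraries, and the other 3 lay below all of them. In TPM the means were 28.9 ± 2.58 and 33.2 ± 1.69 (SD, n = 4). The difference was 0.20 (SE 0.07, 95% interval 0.04 to 0.36, limma, adjusted p = 0.222). Without empty vector replicate 2 it was 0.25 with an adjusted p of 0.0898, and over all alternatives it ran from 0.10 to 0.25.

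RELA encodes the transactivating subunit of the classical dimer (ENSG00000173039, chromosome 11, 65421070 to 65430561). It had 5.35, 5.36, 5.11 and 4.93 in the controls and 5.08, 5.20, 5.21 and 5.02 with Siglec-XII. The Siglec-XII libraries all lay inside the empty vector range. The difference was -0.06 (95% interval -0.28 to 0.17, limma, adjusted p = 0.813), which was -0.00024 without empty vector replicate 2, -0.0046 without replicate 1 and -0.14 without replicate 4 (adjusted p = 0.460). An interval of this width leaves room for a change of RELA of up to 0.28 in the downward direction.

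NFKB2 and RELB form the dimer of the alternative branch of the pathway, in which the NFKB2 precursor is processed after MAP3K14 has been stabilized. NFKB2 (ENSG00000077150, chromosome 10, 104153867 to 104162281) had 5.31, 5.75, 5.46 and 5.46 in the controls and 5.48, 5.65, 5.41 and 5.48 with Siglec-XII. Its groups overlapped almost fully, with a difference of 0.01 (95% interval -0.20 to 0.22, limma, adjusted p = 0.966) that turned negative under 7 of 19 alternatives, among them quantile normalization (-0.060), and that was 0.095 without empty vector replicate 2. RELB (ENSG00000104856, chromosome 19, 45504719 to 45541450) had 3.32, 3.78, 3.36 and 3.20 in the controls and 3.62, 3.62, 3.42 and 3.53 with Siglec-XII. Empty vector replicate 2 was above all Siglec-XII libraries and the other 3 were below all of them. The difference was 0.13 (95% interval -0.14 to 0.41, limma, adjusted p = 0.628), and 0.255 without that library (95% interval 0.055 to 0.45, adjusted p = 0.1696). Without empty vector replicate 4, the lowest control, it was 0.062 (adjusted p = 0.846).

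As parts of the summed subunit TPM, NFKB2 took 36.1% ± 2.53 in the controls and 34.8% ± 1.49 with Siglec-XII (SD, n = 4), RELA 29.1% ± 3.04 and 26.7% ± 1.64, and NFKB1 23.6% ± 1.16 and 26.1% ± 1.62. RELB took 7.91% ± 0.756 and 8.39% ± 0.537. REL was the smallest part, at 3.28% ± 0.238 and 4.05% ± 0.380, with empty vector values of 2.93% to 3.45% and Siglec-XII values of 3.50% to 4.35%. The sum itself was 123 ± 13.2 TPM and 128 ± 3.81 TPM. Its highest value, 142 TPM, was in empty vector replicate 2, as was the lowest part of REL, 2.93%. The parts were not computed without that library, nor for other entries. The means of the 5 subunits were in the same order in both groups, but with Siglec-XII RELA and NFKB1 were not ordered beyond their spread. The TPM of NFKB1 relative to that of RELA was 0.819 ± 0.111 in the controls and 0.981 ± 0.110 with Siglec-XII (SD, n = 4). In Siglec-XII replicate 4 NFKB1 was the higher, at 35.8 TPM against 31.5 TPM.

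Of the inhibitors, NFKBIA encodes IkappaB alpha, which binds RELA dimers and is resynthesized soon after each activation (ENSG00000100906, chromosome 14, 35870285 to 35873955). Its log2(TPM + 1) was 5.10, 5.26, 5.05 and 4.91 in the controls and 5.25, 5.03, 5.09 and 5.20 with Siglec-XII. The groups overlapped, with a difference of 0.06 (95% interval -0.12 to 0.25, limma, adjusted p = 0.742), which was -0.0060 with quantile normalization. It was 0.12 without empty vector replicate 2, 0.0069 without replicate 4 and 0.028 without Siglec-XII replicate 1. The TPM of NFKBIA relative to that of RELA was 0.928 ± 0.0625 in the controls and 1.02 ± 0.137 with Siglec-XII (SD, n = 4), so transcripts of these genes were about equally abundant.

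NFKBIE, which encodes IkappaB epsilon and is 1 of the 4 inflammation genes that the study examined in mouse colon tumors, had the widest spread of the members (ENSG00000146232, chromosome 6, 44225903 to 44233525). Its levels were 3.15, 4.28, 3.40 and 3.43 in the controls and 3.42, 3.60, 3.06 and 3.34 with Siglec-XII. The 18.4 TPM of empty vector replicate 2 compared with 7.32 to 11.1 TPM in the 7 other libraries. The difference was -0.21 (95% interval -0.72 to 0.29, limma, adjusted p = 0.680), and without that library it turned to 0.027 (95% interval -0.29 to 0.34). It was -0.35 without empty vector replicate 1 and -0.11 without Siglec-XII replicate 3. Of the 3 other genes of that set, IL6ST, the shared receptor chain of the interleukin-6 family, had 6.18 ± 0.20 and 6.302 ± 0.075 (SD, n = 4, limma, adjusted p = 0.528), CXCL8 stayed at or under 0.343 TPM in every library and IL1B was listed at 0 in all 8. IL6ST did not pass the test, and CXCL8 and IL1B did not pass the filter. The study took that set from a report on human colorectal tumors, in which it was high in European Americans. It compared composite scores there and in tumors of carcinogen-treated mice. Values of single genes in cultured cells are a different measure in a different setting.

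Of the feedback targets, TNFAIP3 encodes a ubiquitin-editing enzyme that shuts off signaling to the IkappaB kinases (ENSG00000118503, chromosome 6, 138188351 to 138204451). It had 3.70, 4.29, 3.67 and 3.59 in the controls and 4.29, 4.27, 4.11 and 3.85 with Siglec-XII. Empty vector replicate 2 was above all Siglec-XII libraries, and the other 3 were below all of them. The means were 13.3 ± 3.55 TPM and 16.6 ± 2.37 TPM (SD, n = 4). The difference of 0.32 was the largest among the members (SE 0.16, 95% interval -0.05 to 0.68, limma, adjusted p = 0.360). Without empty vector replicate 2 it was 0.48 (95% interval 0.22 to 0.74) with an adjusted p of 0.0864, the lowest of any member under any alternative tried. Without empty vector replicate 4, the lowest control, it was 0.24 (limma, adjusted p = 0.535). It was 0.26 with quantile normalization and 0.23 with the length trend removed.

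BIRC3 encodes an inhibitor-of-apoptosis protein that acts as a ubiquitin ligase at the tumor necrosis factor receptor (ENSG00000023445, chromosome 11, 102188215 to 102210134). It had 2.97, 3.14, 2.63 and 2.42 in the controls and 3.06, 2.78, 2.99 and 2.97 with Siglec-XII. The empty vector libraries were spread more widely and enclosed the Siglec-XII libraries, and the difference was 0.16 (95% interval -0.19 to 0.51, limma, adjusted p = 0.651), or 0.28 without empty vector replicate 2 (adjusted p = 0.336) and 0.035 without replicate 4, the lowest control (adjusted p = 0.925). TNFAIP2, a gene first known for its induction by tumor necrosis factor (ENSG00000185215, chromosome 14, 103587813 to 103603776), was near the filter at 1.02, 1.30, 1.17 and 1.14 in the controls and 0.83, 0.94, 0.70 and 1.33 with Siglec-XII. In 3 of the 4 Siglec-XII libraries it lay below all empty vector libraries and in replicate 4 above them. Its difference was -0.21 (95% interval -0.58 to 0.16, limma, adjusted p = 0.565), which was -0.16 without empty vector replicate 2 and -0.39 with a pseudocount of 0.1. It ran from -0.33 without Siglec-XII replicate 4 to -0.12 without replicate 3.

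Without empty vector replicate 2, 4 of the 10 members, NFKB1, REL, RELB and TNFAIP3, had a p of 0.05 or less before adjustment and groups that did not overlap, all higher with Siglec-XII. Among all entries, with this library left out, 19.4% were at that p (16.7% higher) and 16.9% were higher and did not overlap. The count at an adjusted p under 0.05 was still 0 of 10, against 1.02% of all entries. Since this library was left out for being the highest control of every member, each difference had to move upward, and these counts are a description that is not read against the shares of all entries. With all libraries NFKB1, RELB and TNFAIP3 overlapped the controls through that 1 library alone.

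The rest of the pathway was described from 87 other genes, of which 61 passed the filter. At an adjusted p under 0.05, 1 gene, GADD45B, was higher with Siglec-XII and 0 were lower. Among all entries 0.34% were higher and 0.308% lower at that threshold. Before adjustment 10 were higher and 0 lower at a p of 0.05 or less, and 5 were higher with groups that did not overlap, where 13.9% and 9.17% of all entries were. The median difference was 0.09, against 0.07 over all entries.

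**Figure D4:**
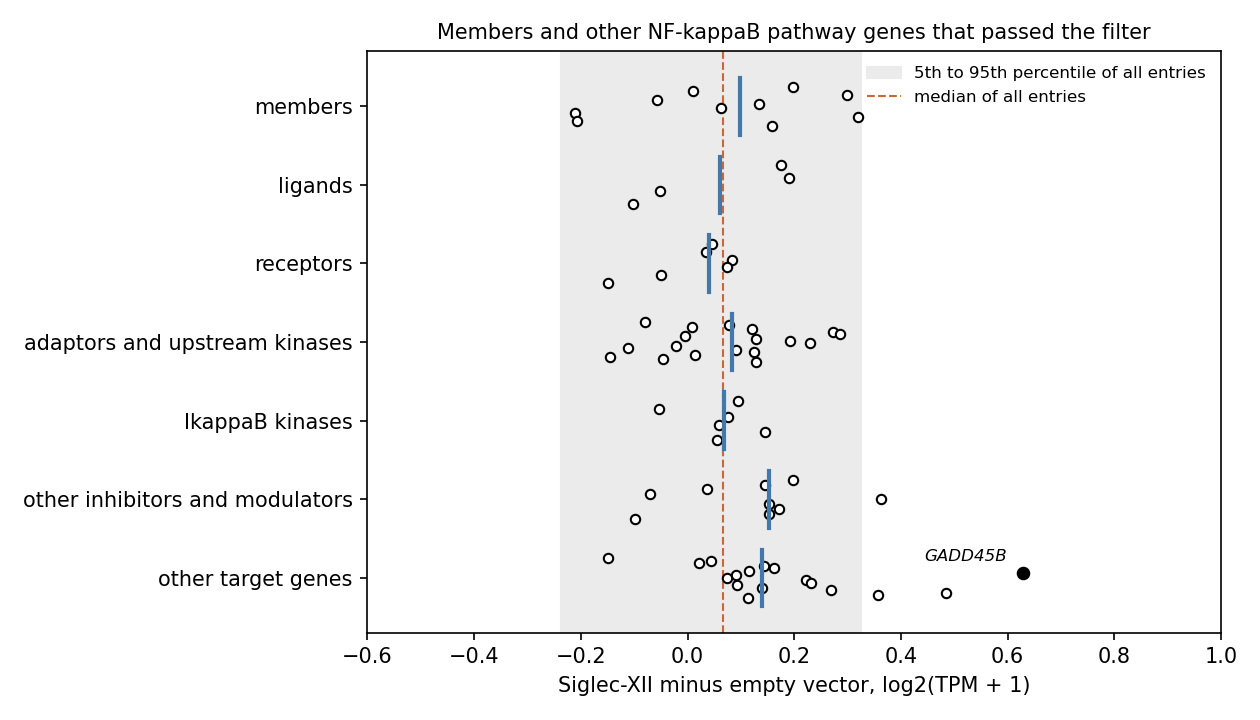
Differences between the groups (Siglec-XII minus empty vector, log2(TPM + 1)) for the members and for the other pathway genes that passed the filter, by list. The blue bar is the list's median, the gray band runs from the 5th to the 95th percentile of all entries (-0.24 to 0.33), and the filled point is GADD45B at 0.63, the only gene with an adjusted p under 0.05.

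GADD45B, a stress-inducible gene that NF-kappaB is known to induce and whose product restrains JNK signaling, had 4.38, 4.47, 4.34 and 4.18 in the controls and 5.03, 4.90, 5.01 and 4.95 with Siglec-XII. The groups did not overlap, and each was narrow against the distance between them. It rose by 0.63 (SE 0.07, 95% interval 0.47 to 0.79, limma, adjusted p = 0.004001), and its adjusted p was under 0.05 under all 19 alternatives, with differences from 0.55 to 0.67. In the same list of 26 target genes 17 passed the filter, with a median difference of 0.14 where all entries had 0.07. IL6, a cytokine and an abundant transcript in these cells, had 7.19 ± 0.11 and 7.45 ± 0.12 (SD, n = 4, adjusted p = 0.138), and TNFAIP8 had 3.24 ± 0.09 and 3.60 ± 0.18 (adjusted p = 0.148). SDC4, a cell surface proteoglycan, was the most abundant target gene at 8.57 ± 0.08 and 8.66 ± 0.05. Of the 6 chemokine genes in the list, named after their values were seen, CCL2 passed the filter, at 4.63 ± 0.15 and 4.48 ± 0.14 (adjusted p = 0.459), the only target gene tested with a fitted difference below 0 (-0.15), and CXCL1, CXCL2, CXCL3, CXCL8 and CCL20 did not.

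Of 12 ligand genes 4 passed the filter and of 14 receptor genes 6 did, with no gene called, where 0.648% of all entries were. The ligand TNF had 1.003 ± 0.29 and 1.18 ± 0.12 (SD, n = 4, adjusted p = 0.648) and LTA, the related lymphotoxin gene, 0.96 ± 0.22 and 1.15 ± 0.05. IL18 was the most abundant ligand at 3.93 ± 0.15 and 3.83 ± 0.17. Among receptors, TNFRSF21 stood at 6.45 ± 0.04 and 6.53 ± 0.02, TNFRSF12A at 6.23 ± 0.25 and 6.31 ± 0.10, and TNFRSF1A, the main receptor of tumor necrosis factor, differed by 0.046 (adjusted p = 0.776), while the genes TLR2, TLR3, TLR4 and TLR5 of Toll-like receptors, also named after their values were seen, did not pass the filter. The fitted differences of the 6 receptor genes tested lay between -0.15 and 0.08.

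Among all entries 0.648% were called and 13.9% were higher at a p of 0.05 or less before adjustment. Of 19 adaptors and upstream kinases 18 passed, with 0 called and 3 higher at that p. These were IRAK1, a kinase of the interleukin-1 and Toll-like receptor complexes (0.23, adjusted p = 0.149), its adaptor MYD88 (0.19, adjusted p = 0.221) and TRAF5 (0.29, adjusted p = 0.266). All 6 IkappaB kinase genes passed, with a median difference of 0.07, where all entries had 0.07, and a range of -0.054 to 0.14. CHUK, a catalytic kinase of the complex, had 4.43 ± 0.07 and 4.53 ± 0.04, and IKBKE, a related kinase, 3.68 ± 0.20 and 3.82 ± 0.09. TBK1, also a related kinase, had 4.67 ± 0.01 and 4.73 ± 0.17, and IKBKG, the regulatory subunit of the complex, 3.50 ± 0.20 and 3.58 ± 0.14, a value that is uncertain because of a near-identical pseudogene. Of the 9 other inhibitors and modulators, all of which passed, 0 were called. At a p of 0.05 or less before adjustment 3 were higher, where 13.9% of all entries were. NFKBIB, which encodes IkappaB beta, differed by 0.20 (adjusted p = 0.149), the deubiquitinase gene CYLD by 0.36 (adjusted p = 0.156) and TNIP1, a partner of the TNFAIP3 protein, by 0.17 (adjusted p = 0.217). NFKBIB stood on 2 entries with shared values, so its reads may have been divided between copies. The 10 genes at a p of 0.05 or less before adjustment included no kinase of the IkappaB complex and no receptor. With only 6 genes tested in each list and 13.9% of all entries higher at that p, such an absence is near the background.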

How the data were processed

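RNA-seq libraries from total RNA were sequenced as 100 bp paired reads. The labels name a kit for ribosomal RNA depletion and the methods a kit for mRNA. The authors quantified the reads with kallisto (0.45.0 in the submitters' processing notes) against hg19 and deposited 1 table of log2(TPM + 1), used here as deposited with a pseudocount of 1. Each column, taken back from the log2 scale, summed to 1000000, so the depth behind each value is unknown and no counting interval or count test was possible. The labels list 4 samples per group, while the description of the series speaks of fewer cultures and the methods of technical replicate libraries; p-values then measure only the spread between these samples, which may be technical. All 8 columns were matched to samples by title.

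Groups were compared with limma 3.58.1 (R 4.3.3; lmFit, eBayes with a mean-variance trend, two-sided) over the 15590 entries with at least 1 TPM in at least 4 samples, adjusted by Benjamini-Hochberg. The fit was tested on simulated data. SIGLEC12 was compared by an exact permutation test. A symbol on several entries was read from the entry with the highest mean. Positions are from GENCODE lifted to GRCh37, by gene ID, and promoters from RefSeq. The 87 other pathway genes are ligands, receptors, adaptors, IkappaB kinases, inhibitors and targets; 4 marker lists covered colon epithelium, trophoblast, immune cells and fibroblasts. The text names all members, SIGLEC12, listed markers, every called pathway gene and, per list, the 3 genes with the lowest p and the most abundant one; others are named as chosen after their values were seen. The members and lists were chosen with earlier results of these data known.

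Alternative settings covered the pseudocount (0.1), the filter (any value above 0, or at least 5 TPM on average), scaling (quantile normalization, or upper quartiles made equal), exclusion of the mitochondrial with the 100 most abundant entries or of small structured RNAs, removal of the trend with the longest transcript's length, the variance model (no trend with the mean, or array weights), a block for the replicate number, single libraries left out, and summed entries per symbol. Python 3.11.15 and matplotlib 3.10.9 were used for figures.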

Additional observations from a re-analysis of the deposited data

Results flagged for a closer look

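In 144 groups of 4 libraries (the 10 members, SIGLEC12 and the 61 other pathway genes tested, in each condition), 9 times a library lay apart from the other 3 of its group by Dixon's criterion, which chance meets in about 1 in 20 groups. Of the 9, 4 were in empty vector replicate 2. TNFAIP3 there was 4.29 in log2(TPM + 1), against 3.59 to 3.70 in the others, IKBKB was 4.10, against 3.38 to 3.44, IER3 was 1.89, against 1.37 to 1.43, and TNF was 1.43, against 0.79 to 0.90. TNF in Siglec-XII replicate 1 was 1.35, against 1.10 to 1.14. NFKB1 in Siglec-XII replicate 4 was 5.20, against 5.06 in the others. TAB3, an adaptor gene, was 3.90 in empty vector replicate 1, against 4.14 to 4.15, and IL1RAP, a receptor gene, was 1.26 in empty vector replicate 3, against 1.76 to 1.84. IKBKG in empty vector replicate 1 was 3.20, against 3.59 to 3.63.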

How the results depend on the processing

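The count of members with an adjusted p under 0.05 was 0 and that of other pathway genes was 1 under each of the 20 alternatives, the sum over the entries of a symbol included, which for the other pathway genes was chosen after seeing the data. Of 188 values of a single member under an alternative, 179 kept their direction and 9 changed sign, all of them of genes with differences near 0 or set by 1 library. NFKB2 was -0.060 after quantile normalization, -0.050 after upper quartiles were made equal, -0.032 without mitochondrial and most abundant genes and -0.057 after the length trend was removed, and ran from -0.051 to 0.095 when each sample was left out in turn. NFKBIA was -0.0060 with quantile normalization. NFKBIE ran from -0.35 to 0.027 with each sample left out, the highest without empty vector replicate 2. REL and TNFAIP2 were not tested with a mean of at least 5 TPM. Over all entries the count of 101 became 51 with no filter, 33 without small structured RNAs and 54 with no mean-variance trend, and ran from 49 (without empty vector replicate 3) to 159 (without empty vector replicate 2). The difference of SIGLEC12 ran from 10.57 to 10.62 with a sample left out, where the smallest exact p is 0.0571. The causes of these changes were not tested.

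With the replicate number as a block there were 69 entries, 0 members and 1 other pathway gene past the threshold. Libraries with the same number did not deviate together (correlations of -0.0742 to 0.0591 across genes) and did not all match their own number best, so the numbers were not taken as pairs.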

Other observations

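Several ligand and target genes of the major histocompatibility region stood on many entries with shared values, so that 1 entry holds only part of their reads. TNF stood on 8 entries whose TPM summed to 7.32 ± 3.04 in the empty vector cells and 8.94 ± 1.31 with Siglec-XII (SD, n = 4). LTA, on 7 entries, summed to 3.02 ± 0.792 and 3.68 ± 0.234 TPM. IER3, a survival gene on 6 entries that is named after its values were seen, summed to 7.70 ± 2.08 and 8.76 ± 1.02 TPM. For each of the 3 genes the SD of the empty vector libraries was larger than the difference between the means. That spread came largely from empty vector replicate 2. In log2(TPM + 1) of the entry read, it stood at 1.43 for TNF, 1.24 for LTA and 1.89 for IER3, above every Siglec-XII library. The other empty vector libraries reached at most 0.90, 1.04 and 1.43, below every Siglec-XII library (lowest 1.10, 1.08 and 1.57). With that library left out, 16.9% of all entries were higher and did not overlap. None of the 10 members stood on more than 1 entry.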
